A study of Homo sapiens with 44 samples.

Results

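TRPM8 and 8 other genes of cation channels and store-operated calcium entry were followed across castration-resistant prostate tumors given vehicle or an antiandrogen. The 9 genes were listed by name: TRPM8, TRPM4, TRPM7, TRPV6, TRPC1 and MCOLN1 of the transient receptor potential (TRP) family, the pore protein ORAI1 and the store sensors STIM1 and STIM2. They are 9 of the 23368 genes in the count table. A mean below 0.5 CPM (read counts per M of the library's scaled total, M being the SI prefix mega) would have dropped a gene, and 0 were dropped.

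All tumors were xenografts of VCaP, an established line of human prostate cancer cells with a TMPRSS2-ERG fusion, in HSD:Athymic Nude–Foxn1nu mice, which lack a normal thymus and so most T cells. In every arm, vehicle included, the mice had been castrated and dosing began only once serum PSA was back at its level from before castration. Arms were balanced on PSA, its change, body weight, cage and week of castration. The vehicle arm had 15 libraries, the enzalutamide arm 14 and the ARN-509 arm 15, and each drug was given by mouth through gavage for 4 weeks, at 20 mg/kg/day. Both are antiandrogens, and ARN-509 is also known as apalutamide. The ages of the mice were not given in the sources used here. Each library was taken as the tumor of 1 mouse, since the numbers equal the mice treated, and p-values measure the spread between these libraries.

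TRP channels are cation channels of the plasma membrane or of internal membranes, opened by temperature, lipids, calcium or other signals. TRPM8 opens in response to cold and menthol in sensory neurons and is also made by prostate epithelium, where androgen is known to raise its transcript. In store-operated calcium entry, STIM proteins sense the loss of calcium from the endoplasmic reticulum and open ORAI pores in the plasma membrane.

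The sequences just upstream of 3 of the genes are shown because the genes behaved differently: TRPM8 was the 1 member that passed the test for both drugs, TRPV6 passed it for ARN-509, and TRPM4 passed it for neither drug against vehicle. Each line gives the 250 bases before the annotated RefSeq start on the strand of the gene, in build GRCh38.p14, at chr2:233917123-233917372 (+) for TRPM8, chr7:142885746-142885995 (-) for TRPV6 and chr19:49157542-49157791 (+) for TRPM4. Capitals mark a match, on either strand, to TATAAA (the TATA box core), GGGCGG (the GC box of SP1-type factors) or AGAACA (one arm of the androgen response element).
TRPM8: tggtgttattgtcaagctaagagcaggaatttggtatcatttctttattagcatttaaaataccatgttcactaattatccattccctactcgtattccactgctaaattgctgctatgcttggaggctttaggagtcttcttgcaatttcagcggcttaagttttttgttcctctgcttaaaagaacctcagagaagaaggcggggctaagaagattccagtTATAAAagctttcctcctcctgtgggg
TRPV6: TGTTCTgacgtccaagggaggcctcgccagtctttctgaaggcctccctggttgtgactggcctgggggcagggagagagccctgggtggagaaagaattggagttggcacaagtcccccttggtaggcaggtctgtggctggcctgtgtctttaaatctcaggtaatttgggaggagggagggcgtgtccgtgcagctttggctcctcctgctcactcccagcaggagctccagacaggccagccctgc
TRPM4: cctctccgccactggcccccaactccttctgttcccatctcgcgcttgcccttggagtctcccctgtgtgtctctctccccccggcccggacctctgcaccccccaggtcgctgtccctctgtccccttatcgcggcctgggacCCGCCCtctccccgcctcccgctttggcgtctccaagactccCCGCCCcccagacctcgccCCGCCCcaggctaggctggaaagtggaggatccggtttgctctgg
The TRPM8 window held TATAAA with its first base 27 bases before the start, and neither of the other motifs. The TRPV6 window held AGAACA, read on the opposite strand as TGTTCT, 250 bases before the start. The TRPM4 window held GGGCGG on the opposite strand at 106, 64 and 45 bases before the start. Its GC content was 69.2%, against 60.4% for TRPV6 and 40.0% for TRPM8, and the median of all 35116 RefSeq windows of that length was 58.0%. Of these windows, 10.7% held TATAAA, 42.6% held GGGCGG and 12.4% held AGAACA; the full palindromic androgen response element, with both arms, was in 0.00285%. TRPM8 has 6 annotated windows, and AGAACA was in 1 of the other windows. RefSeq windows were matched for 8 of the 9 genes, all but ORAI1. The motifs did not follow the behavior of the genes in the windows not shown. TRPM7, which rose under ARN-509 like TRPV6, held GGGCGG and no AGAACA. STIM1, which fell under ARN-509, held AGAACA at 182 and 49 bases before the start. TRPC1, MCOLN1 and STIM2, which passed for neither drug against vehicle, held GGGCGG like TRPM4. A match is a description of these letters only.

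Depth ran from 4.19 to 25.8 M counts in vehicle libraries, from 3.38 to 30.1 M in ARN-509 libraries and from 4.72 to 16.9 M in 13 enzalutamide libraries. The remaining one, enzalutamide 4, held 80142 counts, and its r with the rest of its arm across genes was 0.391 (Pearson). It was left out, so all values rest on 43 libraries. Vehicle 8 and vehicle 10 had r of 0.891 and 0.917, and every other library at least 0.956. Leaving both out changed no call of a member. KRT8, KRT18 and EPCAM, epithelial genes, had medians of 141 to 159, 136 to 154 and 409 to 425 CPM over the 3 arms. They belong to 10 prostate epithelial tumor markers, whose sums had medians of 6230, 11400 and 12300 CPM in vehicle, enzalutamide and ARN-509 tumors. Of the 10, edgeR called 2 higher and 0 lower under enzalutamide. Under ARN-509 it called 2 higher and 3 lower, KRT18 among the lower. Of all tested genes, 10.8% and 30.8% were called. Markers of fibroblasts, endothelium and leukocytes summed to medians of 2.46 to 16.8 CPM, with DCN, FAP, CDH5, KDR, PTPRC and CD163 at a median of 0. The 8 fibroblast markers summed to 6.27 to 27.2 CPM in vehicle tumors (median 16.8), 4.01 to 23.2 (7.77) under enzalutamide and 4.11 to 15.6 (7.52) under ARN-509. The 6 endothelial markers ranged from 2.44 to 7.99, 1.55 to 4.37 and 1.27 to 3.86 CPM. The 6 leukocyte markers had medians of 6.3, 7.27 and 5.52 CPM, and the 6 neuroendocrine markers had 342, 402 and 375 CPM. The 4 basal markers summed to medians of 5.86, 1.06 and 0.664 CPM, with KRT5, TP63 and KRT15 at a median of 0. In vehicle, enzalutamide and ARN-509 tumors, PDGFRA had medians of 5.49, 1.78 and 1.89 CPM, and VWF of 3.15, 0.354 and 0.185 CPM. PECAM1 was also lower (0.969, 0.486 and 0.612). Medians of COL1A1 (3.26, 3.69 and 4.83), PDGFRB (0.406, 0.64 and 0.555) and ESAM (1.27, 1.26 and 1.45) stayed near or above vehicle. By medians, the lower fibroblast and endothelial sums are thus not shared by all their markers. The edgeR log2 fold changes of COL1A1 were below 0, at -0.49 and -0.06, and did not pass (adjusted p = 0.329 and 0.886). Whether the higher tumor marker sums or the lower fibroblast, endothelial and basal sums had a part in the results was not tested.

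TRPM8, the cold- and menthol-gated channel, fell under both drugs. In vehicle tumors its level ran from 101 CPM to 801 CPM, with a median of 479 CPM. Enzalutamide tumors held 19.8 to 175 CPM (median 79.0), and ARN-509 tumors 57.2 to 213 CPM (median 104). Every treated tumor lay under the vehicle median, but the ranges overlapped at the low end of the vehicle arm. Of 13 enzalutamide tumors 10 were below every vehicle tumor, as were 7 of 15 ARN-509 tumors. Means were 484 ± 204 CPM (SD, n = 15) for vehicle, 83.1 ± 45.9 CPM (n = 13) for enzalutamide and 118 ± 49.9 CPM (n = 15) for ARN-509. In such bulk tumors, fewer cells that make a transcript and less of it per cell cannot be told apart.

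**Figure D1:**
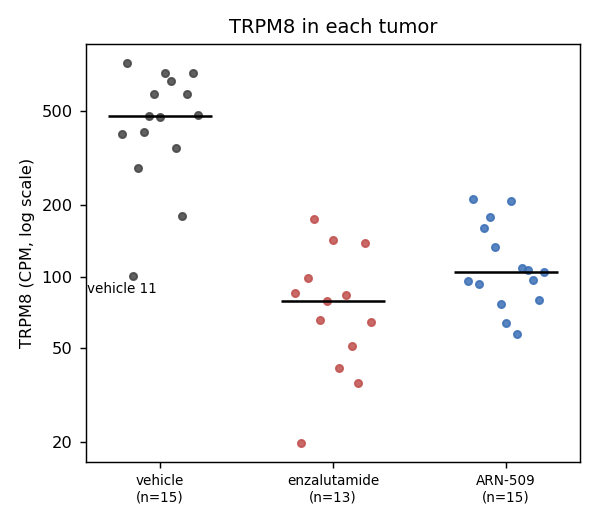
TRPM8 in CPM (log axis) in each tumor of the 3 arms, 1 point per tumor, with a line at the median of the arm. Medians are 479, 79.0 and 104 CPM, and vehicle 11, at 101 CPM, sits among the treated tumors.

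The log2 fold change of TRPM8 under enzalutamide was -2.54 ± 0.28 (SE; 95% interval -3.11 to -1.98; edgeR adjusted p = 1.12e-08), a level 5.82-fold lower than vehicle. Only 7 of the 13520 genes tested had a lower value. Under ARN-509 it was -2.03 ± 0.26 (-2.56 to -1.5; adjusted p = 1.5e-07), or 4.09-fold lower, the twelfth lowest value of all genes. The drugs themselves did not differ past the threshold. The log2 difference of TRPM8, enzalutamide minus ARN-509, was -0.51, with an interval of the difference from -1.05 to 0.0238 (adjusted p = 0.14), and 10 of 13 enzalutamide tumors lay under the ARN-509 median. Both comparisons with vehicle use the same vehicle tumors.

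One vehicle tumor, vehicle 11, stood within the treated range for TRPM8, at 101 CPM against 180 to 801 CPM in the other 14. It was singled out after its values were seen. STEAP4, an androgen-induced metalloreductase, was also at its lowest vehicle value there, 4.43 CPM against 13.7 to 132 CPM in the others. ATP2B2, a plasma membrane calcium pump, was at 4.88 CPM against 0 to 3.27 CPM. PMEPA1, another androgen-induced gene, was at 1080 CPM, against 752 to 1340 CPM in the other vehicle tumors. Its highest values were 920 CPM under enzalutamide and 1050 CPM under ARN-509. FKBP5 was at 269 CPM against 173 to 406, and KLK3, which encodes PSA, at 380 CPM against 185 to 1050. Both values also lay within the enzalutamide ranges, 142 to 378 and 134 to 742 CPM. They were above the ARN-509 ranges, 133 to 264 and 161 to 343 CPM. These 2 genes thus set the tumor apart from the ARN-509 arm but not from the enzalutamide arm. Most other androgen-induced genes were not compared in it. Without vehicle 11, 26 of 28 treated tumors lay under the lowest vehicle tumor. The TRPM8 log2 fold changes without it were -2.62 for enzalutamide and -2.11 for ARN-509. Leaving out the vehicle tumor with the lowest TRPM8 can only widen the difference, so these values are a description.

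How TRPM8 varied between tumors of 1 arm was set beside 4 genes that androgen induces, in 12 relations. Their p-values were adjusted over the 15 relations computed. In vehicle tumors TRPM8 ran with STEAP4 (log2 CPM, Pearson r = 0.892, permutation p = 3e-05, adjusted p = 0.00045; Spearman rho = 0.925, permutation p = 3e-05, adjusted p = 0.00045; n = 15). Without the 2 tumors farthest from the STEAP4 median, vehicle 11 and vehicle 14, r was 0.752 (permutation p = 0.00284, adjusted p = 0.0318). With KLK3 the r in vehicle tumors was -0.373 and did not pass (permutation p = 0.164, adjusted p = 0.264; rho = -0.582, permutation p = 0.0249, adjusted p = 0.0623).

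In treated tumors STEAP4 was low, with medians of 2.63 CPM under enzalutamide and 3.11 CPM under ARN-509, and its relation with TRPM8 did not pass. It was r = -0.56 under enzalutamide (permutation p = 0.0468, adjusted p = 0.1; rho = -0.484, permutation p = 0.096) and r = 0.261 under ARN-509 (permutation p = 0.346, adjusted p = 0.419; rho = 0.304, permutation p = 0.269). With KLK3 the sign was negative in the enzalutamide arm (r = -0.797, permutation p = 0.00113, adjusted p = 0.00565; rho = -0.692, permutation p = 0.0113, adjusted p = 0.0422; n = 13). Without enzalutamide 5 and enzalutamide 2 it was -0.595 (permutation p = 0.0548, adjusted p = 0.138) and no longer passed. In ARN-509 tumors the r with KLK3 was -0.572 (permutation p = 0.0256, adjusted p = 0.0639; rho = -0.671, permutation p = 0.00758, adjusted p = 0.0379; n = 15), and -0.733 without ARN-509 5 and ARN-509 3 (permutation p = 0.00424, adjusted p = 0.0318). Of the 12 relations, 2 passed by r, and without the 2 farthest tumors 2 did, STEAP4 in vehicle tumors and KLK3 in ARN-509 tumors. FKBP5, a co-chaperone of steroid receptors, and TMPRSS2, a serine protease, did not pass by r in any arm (adjusted p from 0.0619 to 0.661). Whether the relations differ between arms was not tested.

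**Figure D2:**
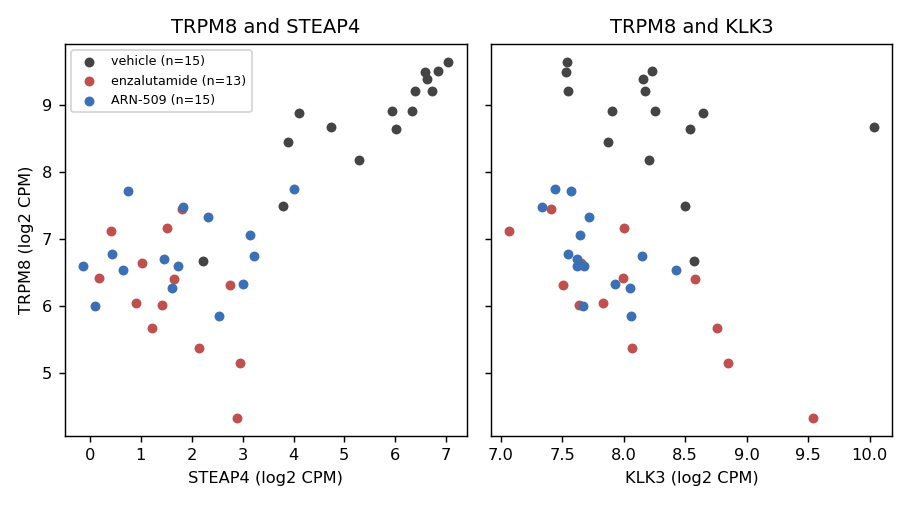
TRPM8 against STEAP4 and KLK3 in each tumor, all as log2 CPM, 1 point per tumor colored by arm. Vehicle tumors run up with STEAP4 (r = 0.892), and enzalutamide tumors run down with KLK3 (r = -0.797).

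The genes whose level most resembled TRPM8 over all 43 tumors, of 12947 genes compared, were ARHGEF26, a guanine nucleotide exchange factor (Spearman rho 0.917), PKP1, a desmosomal plakophilin (0.887), DSC3, a desmosomal cadherin (0.883), PTPRK, a receptor tyrosine phosphatase (0.882), and DIRAS2, a small GTPase (0.875). These values include the difference between arms and share library depth and scaling. ARHGEF26 had medians of 103, 27.1 and 28.4 CPM and PKP1 of 157, 36.8 and 45.9 CPM in vehicle, enzalutamide and ARN-509 tumors. With the mean of each arm subtracted, the most alike were NRCAM, a cell adhesion protein (0.808), PTPRK (0.798), PKP1 (0.783), ALDH1A1, a retinal dehydrogenase (0.766), and DIRAS2 (0.765). PTPRK, PKP1 and DIRAS2 were in both sets. The other 8 members had rho with TRPM8 of -0.293 to 0.114 over all tumors, and of -0.432 for MCOLN1 to 0.221 for TRPC1 within arms.

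Levels of different genes were compared only as CPM per kilobase of transcript, with the length of a single annotated transcript for each gene. The order therefore depends on which transcript was taken. In vehicle tumors TRPM8 was the most abundant of the 9, with a median of 85.2, and was above TRPM4, next at 15.8, in 15 of 15 tumors. STIM2 (12.4), TRPV6 (8.61), ORAI1 (8.34), STIM1 (7.52), TRPM7 (6.78), MCOLN1 (4.29) and TRPC1 (1.55) followed. Neighbours in the middle of that order were close: STIM1 exceeded TRPM7 in 8 of 15 tumors and TRPV6 exceeded ORAI1 in 9 of 15. Under enzalutamide TRPM4 came first at 17.3 and TRPM8 second at 14.1, and TRPM4 exceeded TRPM8 in 9 of 13 tumors. Under ARN-509 TRPM8, at 18.5, exceeded TRPM4, at 15.0, in 10 of 15. TRPC1 was last in all 3 arms.

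TRPM8 made up a median of 55.5% of the summed per-kilobase level of the 9 genes in vehicle tumors, 16.6% in enzalutamide tumors and 21.1% in ARN-509 tumors. The lowest and highest shares were 21% and 67.4% under vehicle, 5.13% and 32.2% under enzalutamide, and 12.3% and 38.1% under ARN-509. The summed level of the other 8 had medians of 64.3, 66.8 and 66.9 CPM per kilobase. By the median of each gene over vehicle tumors, 5.21% of the 12947 tested genes with a known length ranked above TRPM8. The same percentage was 38.5% under enzalutamide and 30.6% under ARN-509.

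**Figure D3:**
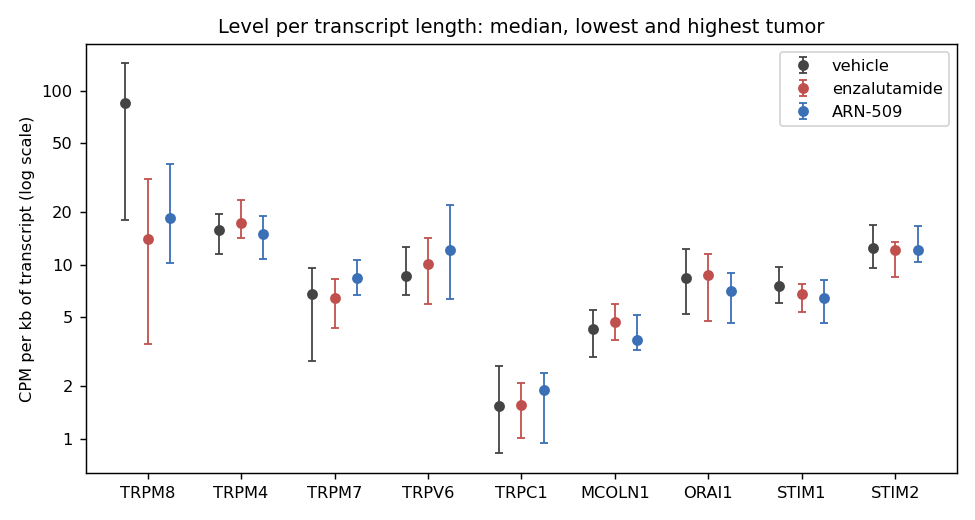
Median CPM per kilobase of transcript of the 9 genes in each arm, on a log axis, with bars from the lowest to the highest tumor. TRPM8 medians are 85.2, 14.1 and 18.5, while TRPC1 stays lowest in each arm.

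Of the 9 genes, 1 was lower and 0 were higher under enzalutamide, beside 10.8% of the 13520 tested genes called in either direction (689 higher, 5.1%, and 766 lower, 5.67%, or 838 and 600 with library totals as the scaling). Under ARN-509, 2 were higher (TRPM7 and TRPV6) and 3 lower (TRPM8, ORAI1 and STIM1), beside 30.8% of all genes (1988 higher, 14.7%, and 2178 lower, 16.1%, or 2713 and 1466 with library totals). Between the drugs, 3 were higher under enzalutamide (TRPM4, MCOLN1 and ORAI1) and 1 lower (TRPM7), beside 26.8% of all genes (1647 higher, 12.2%, and 1976 lower, 14.6%, or 1202 and 2263 with library totals). So many genes were called in the last 2 comparisons that the counts of members there are not read as particular to them. Under enzalutamide 0 members were higher by DESeq2 or limma voom either, and at an unadjusted p under 0.05 edgeR had 0 higher and 2 lower. Beside 10.8% of all genes called and 5.1% higher, 1 of 9 and 0 of 9 are not read as particular either. The median log2 fold change of the 9 was -0.05, -0.08 and -0.10 in these 3 comparisons, and that of all genes -0.00395, -0.0011 and 0.0103.

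The differences between arms ran with base composition across genes. The Spearman rho of the log2 fold change with transcript GC content was 0.207 for enzalutamide, -0.42 for ARN-509 and 0.614 between the drugs. The library slope of log2 expression per 10% of GC content had medians of -0.00899 in vehicle, 0.0314 in enzalutamide and -0.0778 in ARN-509 libraries. TRPM7 (39.6% GC) and ORAI1 (65.8% GC) lie near opposite ends of this scale. Values corrected for GC content and length, by taking the linear trend out of every library, are given for the members, and for other genes named with their values, where the correction changed a call against vehicle. Counts over the gene lists are given without it. It left TRPM8 at -2.50 and -2.13 (adjusted p = 1.12e-08 and 5.71e-08).

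Among the channels of the TRPM family, TRPM7, which joins a channel to a kinase and carries magnesium and zinc as well as calcium, rose under ARN-509. TRPM7 ran from 29 to 100 CPM in vehicle tumors (median 70.5), from 44.8 to 85.5 CPM under enzalutamide (67.1) and from 69.3 to 110 CPM under ARN-509 (87.0). Of 15 ARN-509 tumors 14 were above the vehicle median, and 13 of 13 enzalutamide tumors were below the ARN-509 median, though the ranges overlapped. TRPM7 gave 0.30 ± 0.11 for ARN-509 against vehicle (adjusted p = 0.0272), -0.37 ± 0.11 for enzalutamide against ARN-509 (0.0144) and -0.07 for enzalutamide against vehicle (adjusted p = 0.774). After the correction it was 0.14 (adjusted p = 0.0494) and, between the drugs, -0.08 (adjusted p = 0.383). The ARN-509 call was lost without vehicle 7 (adjusted p = 0.055) or ARN-509 14 (0.0513). TRPM4, a calcium-activated channel that passes sodium, ran from 47.1 to 80.1 CPM (median 65.1), 58.9 to 96.0 (71.2) and 43.9 to 78.5 (61.5) in the vehicle, enzalutamide and ARN-509 arms. TRPM4 was 0.22 ± 0.08 higher (log2) under enzalutamide than under ARN-509 (adjusted p = 0.039) with overlapping ranges, and 0.08 higher after the correction (adjusted p = 0.43). Leaving out 1 of 14 of the 43 libraries also ended that call (adjusted p up to 0.0895). Against vehicle it gave 0.14 and -0.08 (95% intervals -0.0238 to 0.308 and -0.243 to 0.0793).

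TRPV6, a highly calcium-selective entry channel that is studied in prostate cancer, rose under ARN-509. TRPV6 held 15.4 to 29.3 CPM in vehicle tumors (median 19.8), 13.6 to 32.6 CPM under enzalutamide (23.3) and 14.5 to 50.6 CPM under ARN-509 (27.7). Of 15 ARN-509 tumors 13 were above the vehicle median and 5 above every vehicle tumor, and ARN-509 2 was the highest. The log2 fold change was 0.40 ± 0.13 (adjusted p = 0.0184) under ARN-509 and 0.49 after the correction (adjusted p = 0.00317). Under enzalutamide it was 0.14 (95% interval -0.129 to 0.415; adjusted p = 0.566). The difference between the drugs, -0.25, did not pass either (-0.522 to 0.0141; adjusted p = 0.144).

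TRPC1, a subunit of receptor-operated channels and last in level per kilobase, held from 3.56 to 11.4 CPM under vehicle (median 6.70), 4.35 to 8.97 (6.72) under enzalutamide and 4.08 to 10.3 (8.24) under ARN-509. TRPC1 did not pass in any of the 3 comparisons, at -0.09, 0.17 and, between the drugs, -0.27 (95% interval -0.537 to 0.00528). Its lowest count was 17, in vehicle 11. MCOLN1, the calcium release channel of lysosomes, ran from 6.17 to 11.4 CPM (median 8.94), 7.64 to 12.4 (9.80) and 6.76 to 10.7 (7.67) in the same order. MCOLN1 was 0.28 ± 0.09 higher under enzalutamide than under ARN-509 (adjusted p = 0.0214), with 12 of 13 enzalutamide tumors above the ARN-509 median, but 0.09 after the correction (adjusted p = 0.523). Against vehicle it gave 0.12 (adjusted p = 0.428) and -0.15 (0.176).

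**Figure D4:**
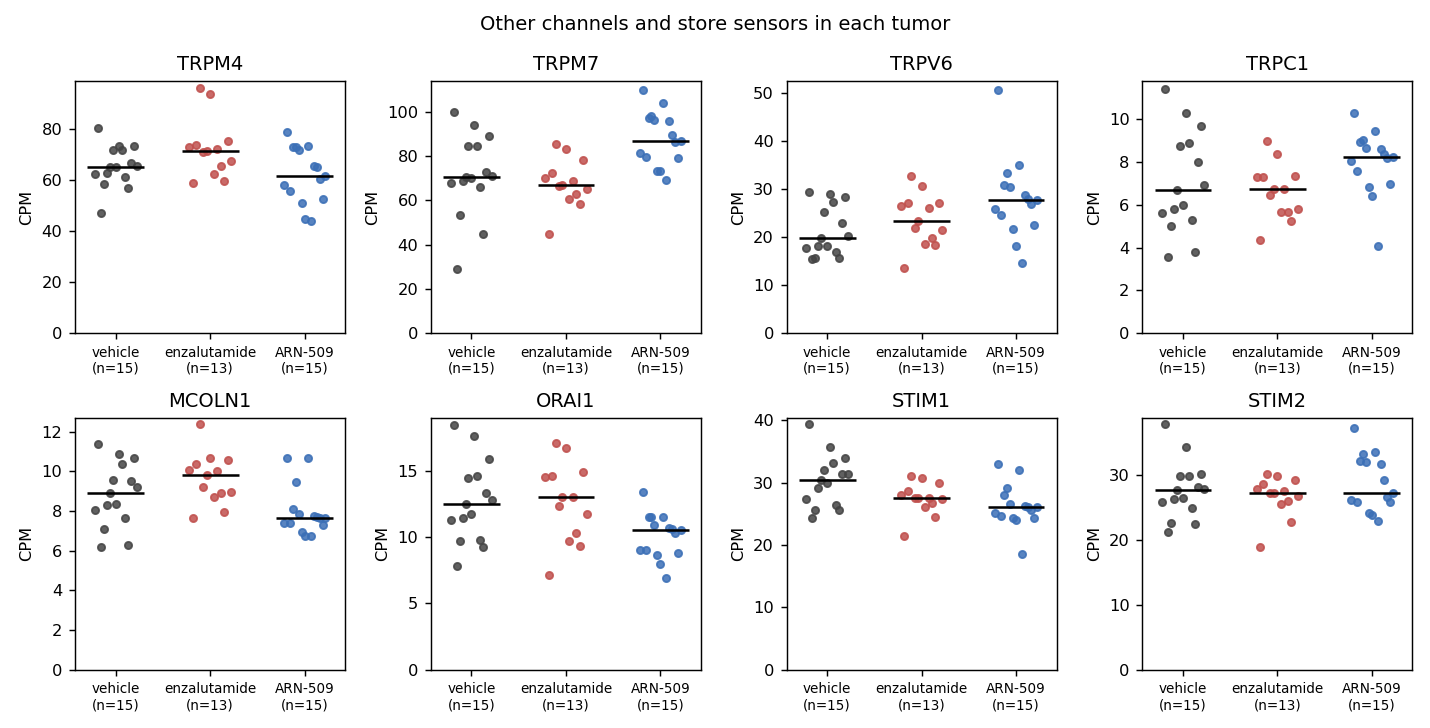
CPM of the 8 genes other than TRPM8 in each tumor, 1 panel per gene, 1 point per tumor, with a line at the median of the arm; each axis starts at 0. All panels show overlapping arms, and the TRPV6 median is 19.8 CPM in vehicle and 27.7 CPM in ARN-509 tumors.

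ORAI1, the pore of store-operated entry, ran from 7.82 to 18.4 CPM in vehicle tumors (median 12.5), 7.14 to 17.1 CPM under enzalutamide (13) and 6.94 to 13.4 CPM under ARN-509 (10.5). Of 15 ARN-509 tumors 14 were below the vehicle median. ORAI1 fell by 0.32 ± 0.12 on the log2 scale under ARN-509 (adjusted p = 0.0326) and stood 0.33 ± 0.12 higher (log2) under enzalutamide than under ARN-509 (adjusted p = 0.0365). Under enzalutamide against vehicle it gave 0.01 (95% interval -0.231 to 0.244). After the correction the ARN-509 value was -0.10 and the value between the drugs 0.04 (adjusted p = 0.435 and 0.812), and leaving out single libraries ended the ARN-509 call in 6 of 43 fits (adjusted p up to 0.0659) and the call between the drugs in 10 (up to 0.0755). Library totals as the scaling also ended both (adjusted p = 0.0706 and 0.0537).

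STIM1, the main store sensor, held 24.3 to 39.4 CPM in vehicle tumors (median 30.4), 21.5 to 31.1 CPM under enzalutamide (27.5) and 18.6 to 33.0 CPM under ARN-509 (26.1). Of 15 ARN-509 tumors 13 were under the vehicle median, as were 11 of 13 enzalutamide tumors. STIM1 fell by 0.20 ± 0.07 under ARN-509 (log2; adjusted p = 0.0211) and gave -0.14 ± 0.07 under enzalutamide (95% interval -0.282 to -0.000997; adjusted p = 0.203). The ARN-509 call ended with library totals (adjusted p = 0.0965), with all 44 libraries (0.241), with limma voom (0.0725) and with the correction and a replicate block together (0.0741). STIM2, a sensor of smaller store losses, had medians of 27.7, 27.3 and 27.3 CPM in the 3 arms, with ranges of 21.3 to 37.9, 18.9 to 30.2 and 23.0 to 37.2 CPM. STIM2 gave -0.05, 0.05 and -0.10, and each interval spanned 0 (the widest bounds were -0.258 and 0.201).

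**Figure D5:**
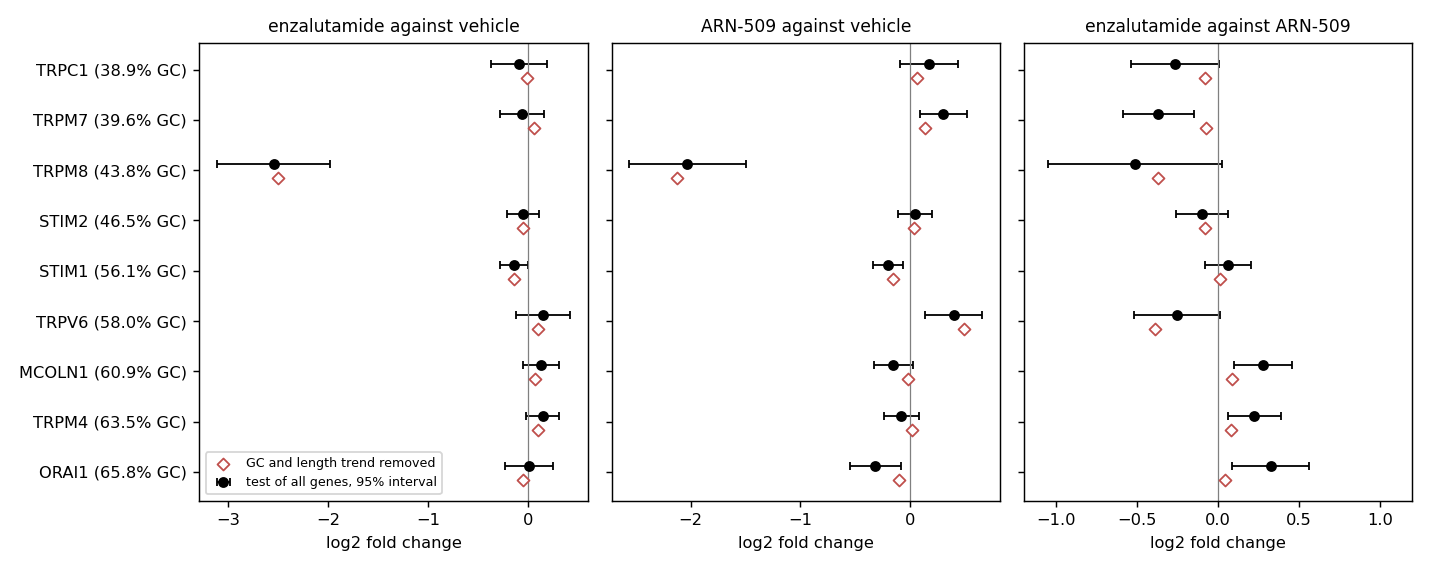
log2 fold change of the 9 genes in the 3 comparisons, ordered by transcript GC content; filled points are edgeR values with 95% intervals and open diamonds the values corrected for GC content and length. TRPM8 stays at -2.54 and -2.50 under enzalutamide, while ORAI1 against ARN-509 moves from 0.33 to 0.04.

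Other TRP channels were mostly under detection. Of 21 listed, 6 had enough counts to be tested, and the other 15 had 0 to 128 counts in all 43 libraries together. Under enzalutamide 0 of the 6 passed in edgeR, and 1 (TRPC7, lower) had an unadjusted p under 0.05; the median was -0.01, and under ARN-509 1 rose and 1 fell, with a median of -0.03. Of all tested genes 10.8% passed under enzalutamide and 30.8% under ARN-509, so these counts are not read as particular to the list. PKD2, a ciliary and endoplasmic reticulum channel, rose by 0.24 under ARN-509 (adjusted p = 0.022), from a median of 78.2 to 90.4 CPM. TRPC7, a lipid-activated channel, fell by 0.56 under ARN-509 (adjusted p = 0.0455, and 0.055 after the correction), from 3.84 to 2.71 CPM. TRPM2, an oxidant-sensitive channel, and MCOLN2 did not pass, at 0.01 and 0.23 under enzalutamide and -0.15 and 0.15 under ARN-509.

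Of the partners of store-operated entry, 10 of 11 were tested. Under enzalutamide 2 rose and 1 fell (median -0.09), and under ARN-509 0 rose and 3 fell (median -0.07). The shares of all genes were 10.8% and 30.8%, so the ARN-509 count is not read as particular to these partners. ORAI2, a second pore protein, rose by 0.35 ± 0.08 under enzalutamide (adjusted p = 0.00172), from a median of 69.9 to 84.7 CPM, and stood 0.33 above the ARN-509 level (adjusted p = 0.00462). ORAI2 gave 0.02 under ARN-509, where the median was 67.8 CPM. ORAI3, the third, rose by 0.29 under enzalutamide (adjusted p = 0.017) and gave 0.10 under ARN-509 (0.22 after the correction, adjusted p = 0.032). HOMER2, a scaffold protein, fell by 0.40 under enzalutamide (adjusted p = 2.46e-05) and by 0.52 under ARN-509 (adjusted p = 3.17e-08). EFCAB4A, a calcium-binding regulator also called CRACR2B, fell by 0.47 under ARN-509 (adjusted p = 0.00348) and gave -0.18 under enzalutamide (-0.26 after the correction, adjusted p = 0.0389).

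Calcium stores, pumps and exchangers had 23 of 29 genes tested. Under enzalutamide 3 rose and 3 fell (median 0.04), and under ARN-509 7 rose and 5 fell (median -0.00288), beside 10.8% and 30.8% of all genes called. ATP2B2 rose from a median of 0.406 CPM to 4.62 under enzalutamide (log2 2.09, adjusted p = 2.11e-06) and 5.18 under ARN-509 (2.22, adjusted p = 2.41e-07), and the ranges overlapped with vehicle, whose highest tumor was vehicle 11 at 4.88 CPM. ATP2B4, another plasma membrane pump, gave -0.68 and -0.43 (both lower; adjusted p = 9.14e-06 and 0.00172). SLC8A2, a sodium-calcium exchanger, rose by 0.71 under each drug (adjusted p = 5.95e-06 and 2.21e-06), and EFHA1, a gatekeeper of the mitochondrial uniporter also called MICU2, by 0.42 and 0.59 (adjusted p = 0.000469 and 4.47e-07).

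Calcineurin and NFAT genes, which act downstream of store-operated entry, had 16 of 17 tested. Under enzalutamide 3 rose and 1 fell (median 0.02), and under ARN-509 6 rose and 3 fell (median 0.05), beside 10.8% and 30.8% of all genes called. RCAN2, an inhibitor of calcineurin, rose by 0.79 and 0.92 (adjusted p = 0.00121 and 6.32e-05). AKAP5, which anchors calcineurin, fell by 0.62 under enzalutamide (adjusted p = 0.000632) and gave -0.25 under ARN-509 (adjusted p = 0.11; -0.44 after the correction, adjusted p = 0.00202). CALM3, a calmodulin gene, fell by 0.28 and PPP3CB, a catalytic subunit of calcineurin, rose by 0.22 under ARN-509 (adjusted p = 0.000675 and 0.00364).

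Partners of TRP channels and enzymes of their lipid cofactor PIP2 had 10 of 18 tested. Under enzalutamide 1 rose and 2 fell (median -0.10), and under ARN-509 0 rose and 3 fell (median -0.08). With 10.8% and 30.8% of all genes called, the ARN-509 count is not read as particular to this list. FAM115C, also called TCAF2, a partner of TRPM8, fell by 1.17 ± 0.27 under ARN-509 (adjusted p = 0.00132), from a median of 140.0 CPM to 54.8 CPM, and gave -0.60 ± 0.28 under enzalutamide (adjusted p = 0.173). PLCG1, a phospholipase that splits PIP2, was lower under both drugs, at -0.29 and -0.19 (adjusted p = 0.00511 and 0.035), and S100A10, an adaptor that carries TRPV channels to the membrane, rose by 0.56 under enzalutamide (adjusted p = 0.018) and gave 0.28 under ARN-509 (0.43 after the correction, adjusted p = 0.029).

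For comparison, of 17 androgen-induced genes 2 rose and 8 fell under enzalutamide (median -0.29), and 1 rose and 10 fell under ARN-509 (median -0.32). Among all tested genes, 10.8% and 30.8% were called. STEAP4 fell under both, at -4.23 and -3.74 (adjusted p = 3.04e-09 and 4.36e-09), and so did PMEPA1, a regulator of TGF-beta signaling, at -0.68 and -0.76 (adjusted p = 5.95e-06 and 1.92e-07). C1orf116 fell under both as well, at -0.48 and -0.49 (adjusted p = 1.94e-05 and 2.86e-06).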

How the data were processed

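Per the labels' protocols, 44 tumor libraries were prepared with Illumina TruSeq RNA v2, a kit without strand information. The authors deposited raw counts per gene for each tumor. The submitters' processing notes name build hg19 and the tools HTSeq 0.6.1, TopHat2 2.1.0, bcl2fastq 1.8.4 and Picard 1.77. Which annotation and strand setting were used, and what was done with mouse reads, is not given in the sources used here, so mouse reads and overlapping or antisense genes may share counts. Columns were matched to samples by the label in the sample record (0 unmatched). The members, lists and tests were chosen with earlier results of these data known.

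Counts of 43 libraries were scaled by TMM, filtered by filterByExpr (13520 genes) and fitted with edgeR 4.0.16 (R 4.3.3) by the robust quasi-likelihood test with arm as the only term. Benjamini-Hochberg adjustment ran over all tested genes, with a threshold of 0.05. SE is the absolute log2 fold change over the square root of F. CPM use the TMM-scaled totals. Relations used 100000 permutations (two-sided) on log2 CPM with a prior count of 2. Likeness was ranked among genes averaging 1 or more in log2 CPM. GC content and length came from GENCODE v29 (GRCh38), matched by symbol for 95.8% of tested genes. Promoters came from RefSeq, GRCh38.p14, and no hg19 coordinates were used. Named genes were all 9 members, up to 4 tested genes with the smallest p from each list, the 5 most like TRPM8 by each measure, and the genes of the relations; a few of these, with 3 of the 15 relations, are not reported here. No 2 libraries held the same counts, and scripts were tested on simulated data. Alternatives were all 44 libraries, other scalings, filters and tests (DESeq2 1.42.0, limma 3.58.1 voom), only the 2 arms compared, a replicate block, correction for each library's linear trend with GC content and log length, thinning to 3377450 counts and each library left out. Leaving out vehicle 8 and vehicle 10 together was added after the data were seen.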

Additional observations from a re-analysis of the deposited data

How the results depend on the processing

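TRPM8 kept its direction and its side of the threshold in 168 of 168 alternative values over the 3 comparisons. Of these values, 56 were between the drugs, where it had no call to lose. With single libraries left out its log2 fold change was -2.68 to -2.45 under enzalutamide, -2.11 to -1.96 under ARN-509 and -0.65 to -0.42 between the drugs. Of the alternative values of the other 8 genes, 1286 stayed on their side of the threshold, most of them values that had no call to lose, 56 lost a call, 2 gained one (TRPC1 with voom, TRPV6 with block and correction, both between the drugs) and 0 called values reversed. After the correction for GC content and length, 4 of the 9 genes passed under ARN-509 and 0 between the drugs. The cause of these losses was not tested. Genes called numbered 1145 to 1794, 3261 to 5045 and 2680 to 4269 with single libraries left out. limma voom called 2551 genes for enzalutamide and 5718 between the drugs. The correction left 916 between the drugs, and 989 with the replicate block. Of 12 relations 2 passed by r, and 2 without the 2 farthest tumors; KLK3 in ARN-509 tumors passed only then, and KLK3 in enzalutamide tumors no longer did.

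Equal replicate numbers did not pair the samples: same-numbered libraries had correlations of -0.324 to 0.59, and 1, 1 and 0 libraries correlated best with their own number. With the replicate block 1197, 4084 and 3290 genes were called, TRPM8 was at -2.49, -2.05 and -0.44, and TRPM4 and MCOLN1 lost their calls between the drugs (adjusted p = 0.0614 and 0.0574). Depth limits TRPC1 most, with counts as low as 17 in a library.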
